A study of Mus musculus with 2 samples.

Results

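Interferons are cytokines that act through receptor-bound JAK kinases on STAT transcription factors. Type I interferons and interferon lambda, the form to which gut epithelium responds strongly, drive a complex of STAT factors and IRF9 onto the interferon-stimulated response element (ISRE), whereas interferon gamma, a product of T and NK cells, drives STAT dimers onto the gamma-activated site (GAS). The induced genes encode RNA-binding proteins, oligoadenylate synthetases and GTPases that restrict viruses and intracellular microbes, together with IRF and STAT factors that pass the signal on.

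The genes described here were taken by their names from the platform's annotation: symbols beginning with Gbp, Ifit, Oas, Irf or Stat and a digit or the letter l, with Ifi and a digit, or with Irgm or Iigp, and a fixed set of single genes from Isg15 to Ubd. Of 17305 genes with a probe set of their own, 65 met this rule. They comprise 5 Ifit, 9 Oas and 8 Gbp genes, 2 immunity-related GTPases, 13 genes named Ifi, 8 antiviral effectors and ubiquitin-like or related genes, 3 RNA sensors, 8 interferon regulatory factors, 6 STATs, and 3 Irf2bp genes, which share the prefix but encode IRF2-binding proteins rather than IRFs. The rule uses names and no measured value. Of its fixed single genes, Isg15, Igtp and Tgtp1 were not among the 65.

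The comparison rests on 2 samples with 1 array each. The graft was small intestinal epithelium of EGFP-transgenic C57BL6 donor mice, grown for 7 days as stem cell-containing organoids, instilled into the colonic lumen of C57BL6 recipients and collected 4 weeks after transplantation. The reference was normal colonic epithelium of a C57BL6 control mouse, with no graft. Both were cut out by laser microdissection, sections of a specimen were pooled, and the specimen of each kind with the best RNA integrity was taken, so neither array stands for more than 1 specimen. The labels give no ages, no sexes and no promoter for the EGFP transgene. The graft differs from the colon sample both in its small intestinal origin and in its culture and transplantation, and these cannot be told apart.

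All levels below are the deposited log2 values, and all differences are the graft level minus the colon level on the log2 scale. No test of a condition can be made with 1 array per group, so counts and medians describe these 2 arrays only. The only available error is the disagreement between different probe sets of 1 gene. It had an SD of 0.48 for the difference over 586 genes and leaves out variation between animals. Only probe sets whose higher value reached the median of all gene values entered it, so it does not cover dimmer genes. Levels near the lower end of the scale, where 20% of probe sets lay below 4.75 on the graft array and 4.74 on the colon array, cannot be separated from background, and differences against them are understated. Epithelial markers were high in both samples, with a median level of 10.01 in the graft against 9.85 in the colon over 16 genes, and a median difference of 0.30. Of the 16, 9 were higher in the graft, 6 lower and 1 equal. Their differences ran from -0.71 to 0.91, so 0.30 is not an offset that all of them share. Where subtracting the epithelial median of 0.30 turns the sign of a group median, this is said with the group.

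A minority of the interferon-related genes stood well above their colon level in the graft, led by Ubd, Iigp1 and Irgm1. Differences of well-known antiviral genes were mixed. They lay between 0.49 and 0.89 for Ifit1, Ifit2, Rsad2 and Usp18. For Mx1, Ifit3, Mx2 and Bst2 they lay between 0.01 and 0.25, and Isg20 and Ifih1 had -1.19 and -1.01. The 6 STATs had differences between -0.03 and 0.24. Of the 65 genes, 7 exceeded their colon level 2-fold or more, against 1.93% of all 17305 genes, and 3 were at least 2-fold lower, against 3.09% of all genes. At least 4-fold higher were 2, against 0.595% of all genes, and 0 were 4-fold lower, against 0.745%. At a 1.5-fold threshold, 17 were higher, against 4.8% of all genes, and 3 were lower, against 8.17%. The median difference of the 65 genes was 0.19 and that of all genes was 0.00. Positive differences were found for 47 genes, negative ones for 16, and 2 had the same value on both arrays. Of all 17305 genes, 7528 (43.5%) had positive differences, 7597 negative ones, and 2180 the same value on both arrays. After subtraction of the epithelial median, 25 of the 65 differences were above 0, against 1998 of all 17305 genes. Of the 65, 3 genes instead of 7 were then at least 2-fold higher, and their median turned to -0.12. The subtraction lowers the difference of every gene alike. It therefore leaves the gap between the median of the 65 and that of all genes as it was. In samples of whole epithelium, a change in the share of a cell type and a change in RNA per cell cannot be told apart.

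Many of these genes were dim. On both arrays 29 of the 65 stayed below 5.48, the median of all gene values. Among the 29 genes whose mean of both arrays reached the median of such means, 6 were at least 2-fold higher, against 3.49% of genes at that level, and 3 were at least 2-fold lower, against 5.79%.

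**Figure D1:**
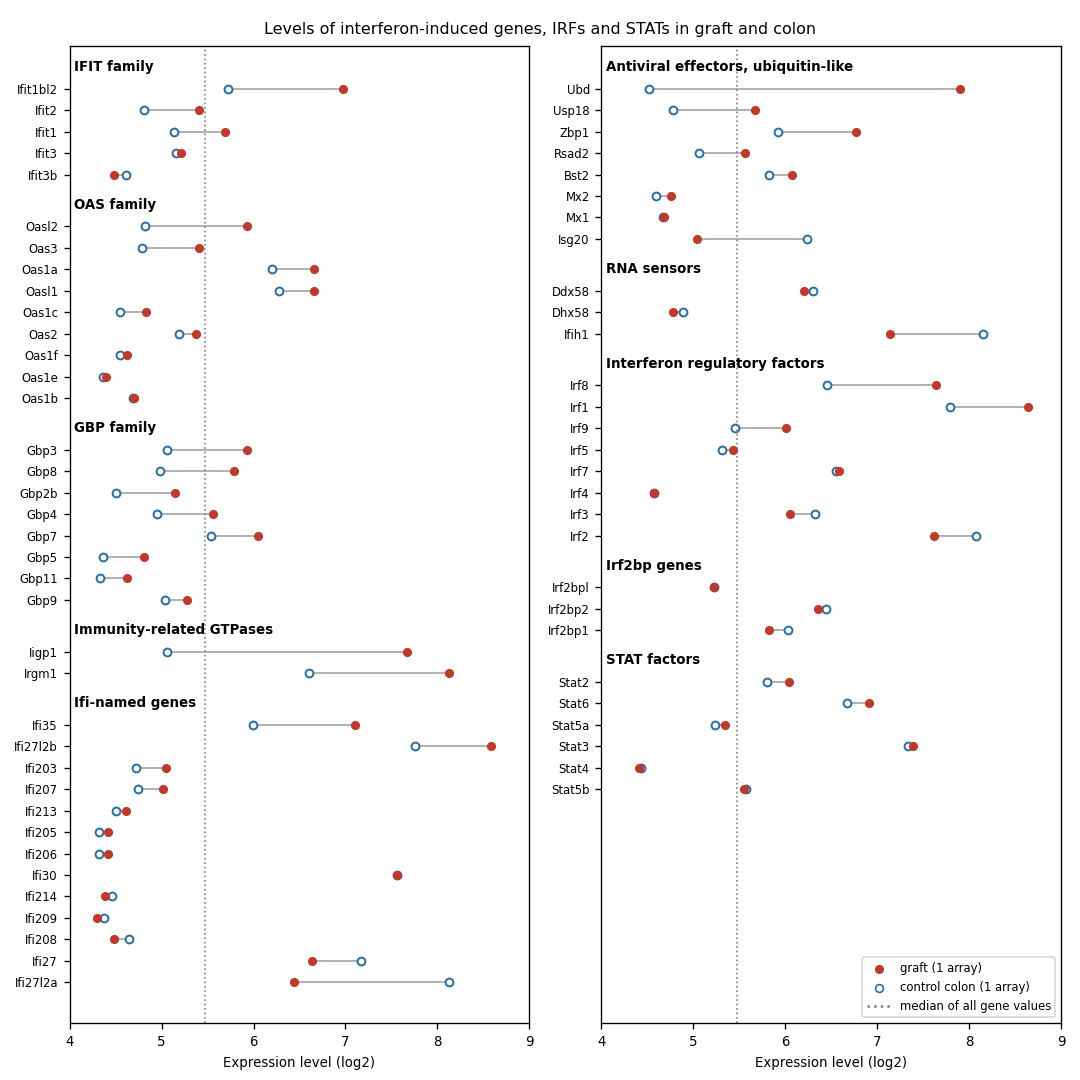
Levels of all 65 genes, grouped by role, on the graft array (filled) and the control colon array (open), with the log2 expression level on the x axis and the median of all gene values, 5.48, as a dotted line. Ubd, Iigp1 and Irgm1 have the longest lines to the right of their colon level, and Ifi27l2a, Isg20 and Ifih1 have graft levels at least 1 below their colon levels.

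**Figure D2:**
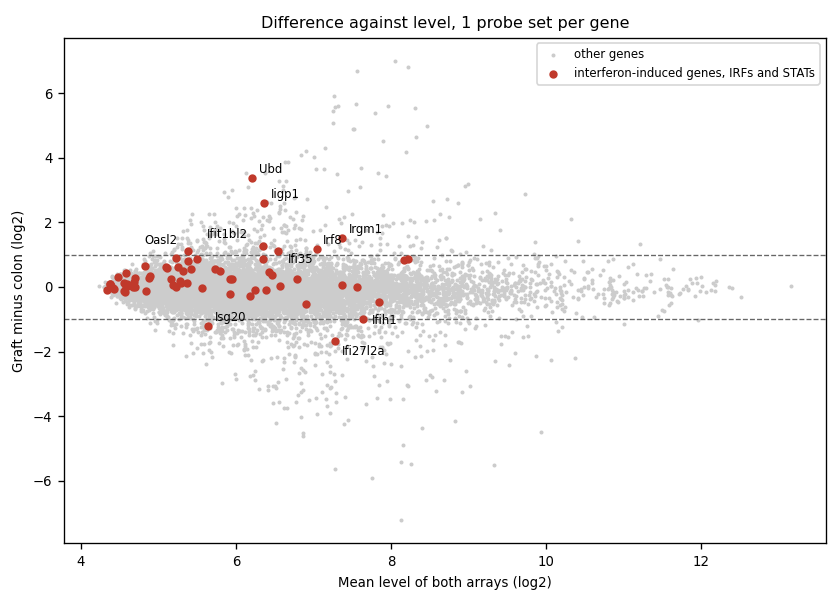
Graft minus colon difference (log2) against the mean level of both arrays (log2) for 17305 genes, with the 65 interferon-related genes in red and 2-fold thresholds as dashed lines. The 10 labelled genes are those at least 2-fold apart, 7 above and 3 below.

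Upstream sequences were set beside these differences because the ISRE and the GAS are the elements through which the family is induced. The stretches printed are the 250 bases before the most upstream start of each gene, from RefSeq on GRCm38.p6, 5′ to 3′ on the gene's strand, for the 4 genes with the highest and the 2 with the lowest differences among those reaching the median level, with a window that may be shown. Capitals mark every match to the core of the ISRE, which is GAAA, any 2 bases and GAAA again, or to TTCNNNGAA, the GAS, searched on both strands.
Ubd, chr17:37193642-37193891, + strand: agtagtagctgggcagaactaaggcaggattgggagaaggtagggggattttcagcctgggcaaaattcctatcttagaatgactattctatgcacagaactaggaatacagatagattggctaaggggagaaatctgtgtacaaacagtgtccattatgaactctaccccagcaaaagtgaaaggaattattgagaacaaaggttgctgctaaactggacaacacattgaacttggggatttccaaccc
Irgm1, chr11:48871421-48871670, - strand: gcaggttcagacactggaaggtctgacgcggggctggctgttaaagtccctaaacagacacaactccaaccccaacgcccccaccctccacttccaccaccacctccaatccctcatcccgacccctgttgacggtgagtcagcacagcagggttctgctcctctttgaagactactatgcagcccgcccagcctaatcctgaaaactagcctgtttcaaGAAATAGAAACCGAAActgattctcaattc
Ifit1bl2, chr19:34640744-34640993, - strand: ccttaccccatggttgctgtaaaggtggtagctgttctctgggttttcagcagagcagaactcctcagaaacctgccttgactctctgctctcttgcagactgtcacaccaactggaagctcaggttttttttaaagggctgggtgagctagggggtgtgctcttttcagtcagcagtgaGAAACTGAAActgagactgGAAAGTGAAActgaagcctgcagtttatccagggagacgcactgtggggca
Irf8, chr8:120736108-120736357, + strand: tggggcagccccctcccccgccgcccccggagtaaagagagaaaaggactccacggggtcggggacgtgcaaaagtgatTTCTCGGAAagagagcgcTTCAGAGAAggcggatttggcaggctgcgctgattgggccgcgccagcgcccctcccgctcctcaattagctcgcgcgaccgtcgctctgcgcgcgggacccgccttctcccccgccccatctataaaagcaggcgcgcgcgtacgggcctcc
Isg20, chr7:78913174-78913423, + strand: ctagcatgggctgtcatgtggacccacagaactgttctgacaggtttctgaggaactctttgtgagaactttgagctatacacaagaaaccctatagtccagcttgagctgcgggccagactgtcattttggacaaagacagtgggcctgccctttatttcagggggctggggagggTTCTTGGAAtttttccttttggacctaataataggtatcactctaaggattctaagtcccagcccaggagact
Ifih1, chr2:62646256-62646505, - strand: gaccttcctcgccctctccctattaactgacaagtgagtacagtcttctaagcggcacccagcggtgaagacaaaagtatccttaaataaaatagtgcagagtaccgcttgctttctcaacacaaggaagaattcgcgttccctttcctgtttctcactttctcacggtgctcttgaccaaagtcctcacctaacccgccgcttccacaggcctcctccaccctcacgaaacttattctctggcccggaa

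The Irgm1 window held 2 overlapping ISRE cores between bases -30 and -15 from the start, and the Ifit1bl2 window held 2 separate ones that began at -70 and -51. Irf8 had 2 GAS matches, at -171 and -153, and no ISRE core. One GAS match at -73 was found for Isg20, whose level was lower in the graft. Neither motif was found in the windows of Ubd, which had the highest difference, and Ifih1, which was lower in the graft, and this says only that these letters are not in these bases.

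Over the 49 of 65 genes with a window, 22 (44.9%) held an ISRE core and 10 (20.4%) a GAS match, with 5 holding both. Of 13575 measured genes with a window, 2.74% held the ISRE core and 6.31% the GAS letters. In 1 case an ISRE core and a GAS match of the same gene overlapped. Within the 49 genes, the median difference was 0.28 with an ISRE core and 0.06 without. It was 0.45 with a GAS match and 0.11 without. Over all measured genes with a window these medians were 0.01 and 0.00 for the ISRE core, and 0.00 and 0.00 for the GAS. The motifs were not more frequent among the genes at least 2-fold higher. Of those 6, 2 (33.3%) held an ISRE core and 1 (16.7%) a GAS match. Of the 41 genes less than 2-fold apart, 20 (48.8%) held an ISRE core and 8 (19.5%) a GAS match. The dim genes Ifi206 and Ifi208 both held the core in the form GAAATCGAAA and had differences of 0.09 and -0.15.

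**Figure D3:**
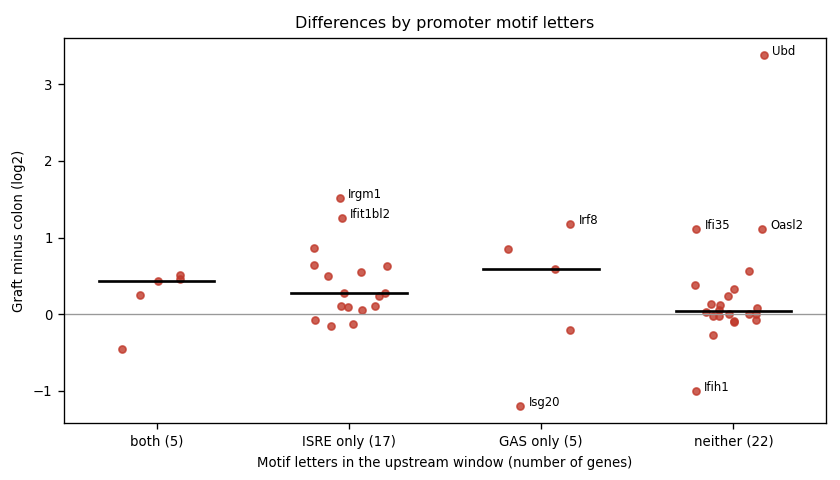
Graft minus colon difference (log2) of the 49 genes with an upstream window, split by whether the 250 bases hold both motifs, the ISRE core only, the GAS letters only or neither, with black bars at the medians, which are 0.44 for both, 0.27 for the ISRE core only, 0.59 for the GAS letters only and 0.04 for neither. Genes at least 2-fold apart are named, and they occur in every column except that with both motifs.

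Among the GTPases, which attack the membranes of vacuoles that hold intracellular microbes, both immunity-related GTPases were more than 2-fold higher in the graft. Iigp1, which loads onto parasite vacuoles, was at 7.66 in the graft against 5.06 in the colon, a 6.07-fold difference that held rank 56 of 17305 genes. Irgm1, the regulator that keeps such GTPases inactive on the cell's own membranes, was at 8.13 in the graft against 6.61 in the colon, or 2.87-fold higher. The graft value of both lay above the median of all genes. All 8 Gbp genes, the guanylate-binding proteins that coat and lyse pathogen vacuoles, had positive differences, against 43.5% of all genes. These lay between 0.24 and 0.87 with a median of 0.56. After subtraction of the epithelial median 6 of the 8 stayed positive, against 1998 of all 17305 genes. None of the 8 reached 2-fold. Gbp3 was at 5.92 in the graft against 5.06 in the colon, and Gbp8 at 5.79 in the graft against 4.98 in the colon. Gbp4 had levels of 5.56 in the graft against 4.95 in the colon. Gbp7 showed 6.05 in the graft against 5.54 in the colon, and Gbp9, with the smallest difference, 5.28 in the graft against 5.04 in the colon. The colon values of Gbp2b, Gbp5 and Gbp11 were between 4.33 and 4.51, close to the floor of the scale. The 4 Gbp genes of the chromosome 3 cluster had a median difference of 0.57 and the 4 of the chromosome 5 cluster one of 0.45, so both clusters showed positive values. Gbp genes are close copies of one another, and probe sets may take up transcripts of a neighbour.

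Ubd encodes the ubiquitin-like modifier FAT10, which interferon gamma and TNF induce and which marks proteins for the proteasome. It had the highest difference of the 65 genes, at 7.90 in the graft against 4.52 in the colon, a 10.4-fold difference of rank 34 among all genes. Its colon value was near the floor, so the size of this fold is not determined. Usp18, the protease that removes ISG15 from proteins and damps the type I receptor, was at 5.67 in the graft against 4.78 in the colon. Zbp1, a sensor of Z-form nucleic acid that triggers cell death, was at 6.77 in the graft against 5.92 in the colon. Their differences of 0.89 and 0.85, or 1.85-fold and 1.80-fold, are under the 2-fold threshold.

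Other antiviral effectors were close between the samples or lower. Rsad2 (viperin, which makes a chain-terminating nucleotide) was at 5.56 in the graft against 5.06 in the colon. Bst2 (tetherin, which holds budding virions on the cell) was at 6.07 in the graft against 5.82 in the colon, a difference that turns negative when the epithelial median is subtracted. The Mx GTPases lay near the floor on both arrays, Mx1 at 4.68 in the graft against 4.67 in the colon and Mx2 at 4.76 in the graft against 4.60 in the colon. Laboratory C57BL6 mice carry a defective Mx1 gene. Isg20, an exonuclease for single-stranded RNA, went the other way, at 5.04 in the graft against 6.24 in the colon, 2.29-fold lower. Of these 8 effector genes 7 had positive differences, against 43.5% of all genes. After subtraction of the epithelial median 4 of the 8 were still positive, against 1998 of all 17305 genes.

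Oas genes make 2′-5′-linked oligoadenylates that switch on RNase L, and Ifit proteins bind viral RNA ends. All 9 Oas genes had positive differences, against 43.5% of all genes. These lay between 0.01 and 1.11 with a median of 0.28, but 5 of the 9 turned negative after subtraction of the epithelial median. Of all 17305 genes, 15307 lay below 0 after the same subtraction. Oasl2, a family member in mouse that binds RNA, passed 2-fold, at 5.93 in the graft against 4.82 in the colon (2.16-fold). Oas3 followed at 5.41 in the graft against 4.78 in the colon, both below the median of all gene values. For Oas1a the levels were 6.66 in the graft against 6.20 in the colon, and for Oasl1 6.66 in the graft against 6.28 in the colon, so these Oas genes above the median of all gene values on both arrays were less than 1.5-fold apart. Oas1b, which is truncated in most laboratory strains, was at 4.70 in the graft against 4.68 in the colon. The Oas1 genes are related copies, and whether a probe set takes up transcripts of a neighbour was not tested.

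The Ifit genes differed among themselves, although they neighbour each other in 1 cluster on chromosome 19. Ifit1bl2 was at 6.98 in the graft against 5.72 in the colon, 2.39-fold higher. Ifit2 was at 5.40 in the graft against 4.81 in the colon, and Ifit1 at 5.69 in the graft against 5.14 in the colon. Ifit3 and its copy Ifit3b had differences of 0.06 and -0.13. Ifit3b was at 4.49 in the graft against 4.61 in the colon, so it cannot be told from background, while Ifit3 and Ifit3b each held 2 ISRE cores in their windows, as Ifit1 and Ifit1bl2 did.

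The RIG-I-like receptors, which detect viral RNA in the cytosol, were not higher in the graft. Ifih1 (MDA5, the sensor of long double-stranded RNA) was at 7.14 in the graft against 8.15 in the colon, 2.01-fold lower. This lies at the 2-fold threshold, and under quantile normalization the difference was -0.93, short of it. Ddx58 (RIG-I) was at 6.20 in the graft against 6.30 in the colon, and Dhx58 (LGP2) at 4.78 in the graft against 4.89 in the colon. The Ddx58 difference of -0.10 lies well inside the SD of 0.48 between probe sets. Dhx58, with a difference of -0.11, was below the median of all gene values on both arrays, where that SD was not taken.

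Genes named Ifi share a naming convention rather than a function, and they showed both directions, with a median difference of 0.09 that turns to -0.21 after subtraction of the epithelial median. Ifi35, a regulator of innate signalling, was at 7.10 in the graft against 5.99 in the colon, 2.16-fold higher. Ifi30 (the lysosomal thiol reductase GILT of antigen processing) had 7.56 on both arrays. In the Ifi27 cluster on chromosome 12, which encodes small hydrophobic membrane proteins, Ifi27l2a was 3.20-fold lower, with 6.44 in the graft against 8.12 in the colon, the most negative difference of the 65 genes. Its neighbour Ifi27l2b showed 8.58 in the graft against 7.75 in the colon, a difference of 0.82, and Ifi27 had 6.63 in the graft against 7.17 in the colon. These neighbouring copies therefore had opposite signs, and cross-binding of their probes was not tested. The 8 genes of the Ifi200 cluster, which encode DNA-binding pyrin-domain proteins and their relatives, were all below the median of all gene values on both arrays, with differences between -0.15 and 0.33.

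Among the transcription factors, 2 IRFs carried the differences. Irf8, known for myeloid and B cell development and also induced by interferon gamma in epithelium, was at 7.63 in the graft against 6.45 in the colon, 2.27-fold higher. Irf1, the factor that interferon gamma induces most directly, was at 8.64 in the graft against 7.79 in the colon. It is the single gene of the 65 with a second probe set, which was at 7.51 in the graft against 6.43 in the colon, so the differences were 0.85 and 1.08. Irf9, the DNA-binding part of the type I and lambda interferon complex, was at 6.01 in the graft against 5.45 in the colon. Irf7, the amplifier of type I interferon production, was at 6.58 in the graft against 6.55 in the colon, and the constitutive Irf3 at 6.05 in the graft against 6.32 in the colon. Irf2, which represses and competes with IRF1, was at 7.62 in the graft against 8.08 in the colon. The lymphoid factor Irf4 had 4.58 on both arrays and Irf5, a factor of myeloid and B cells, a difference of 0.13. The 8 IRFs had a median difference of 0.08, which turns negative after subtraction of the epithelial median.

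No STAT was 1.5-fold apart. Stat2, a part of the type I complex, was at 6.04 in the graft against 5.80 in the colon. Stat6, which carries interleukin 4 and 13 signals, was at 6.91 in the graft against 6.67 in the colon. For Stat3, which carries interleukin 6 and 22 signals, the levels were 7.39 in the graft against 7.33 in the colon. Stat4, Stat5a and Stat5b had differences of -0.02, 0.11 and -0.03. Each of the 6 values was below the epithelial median of 0.30. The Irf2bp genes also differed little, with values between -0.21 and 0.00. Irf2bp1 was at 5.82 in the graft against 6.03 in the colon, and Irf2bp2 at 6.35 in the graft against 6.44 in the colon.

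Other parts of the interferon pathway were read for comparison. The shares to set beside their counts are those of all 17305 genes, 1.93% at least 2-fold higher and 3.09% at least 2-fold lower. The 12 measured interferon genes themselves had differences between -0.29 and 0.35, 0 of them 2-fold apart and a median of 0.13 that turns to -0.17 after subtraction of the epithelial median, and 9 stayed below the median of all gene values on both arrays. Interferon gamma, Ifng, was at 4.79 in the graft against 4.64 in the colon, and the lambda gene Ifnl2 at 6.11 in the graft against 5.76 in the colon. For the 9 dim genes, the levels cannot show whether the cytokine was made in either tissue.

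The receptor chains went in opposite directions. Ifngr1, the ligand-binding chain for interferon gamma, was at 7.82 in the graft against 9.31 in the colon, 2.81-fold lower, while its partner Ifngr2 was at 9.93 in the graft against 9.69 in the colon. Ifnar2, the high-affinity chain for type I interferon, was at 6.80 in the graft against 5.71 in the colon, 2.12-fold higher, and Ifnar1 was at 6.83 on both arrays. Of the lambda receptor, Ifnlr1 was at 5.48 in the graft against 5.60 in the colon and the shared chain Il10rb at 7.22 in the graft against 7.90 in the colon.

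Of 15 receptor kinases and brakes, 2 were higher in the graft by 2-fold or more, against 1.93% of all genes, and 0 were lower by as much, against 3.09%. The median of the 15 was 0.29, which turns to -0.01 after subtraction of the epithelial median. Both higher genes were suppressors of cytokine signalling. Socs2, a brake on growth hormone signalling, was at 8.73 in the graft against 7.05 in the colon. Socs3, a brake on STAT3, was at 6.64 in the graft against 5.56 in the colon. Ptpn2, a phosphatase that damps JAK signalling, had a difference of 0.87, and the interferon-induced brake Socs1 had one of 0.35. Pias2 had a difference of -0.66 and the kinase Jak1 one of -0.50. None of 12 nucleic acid sensing adaptors was 2-fold apart, with a median of 0.04, which turns to -0.26 after subtraction of the epithelial median, and the most negative values for the DNA sensor Aim2, at -0.79, and the adaptor Myd88, at -0.76.

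Outside the name rule, 31 other interferon-stimulated genes had a median difference of 0.19. Of these, 2 (6.45%) were past 2-fold above the colon, against 1.93% of all genes. Past 2-fold below it was 1 (3.23%), near the 3.09% of all genes. Lgals3bp, a secreted glycoprotein, was at 7.97 in the graft against 6.21 in the colon (3.38-fold), and the ubiquitin ligase Rnf213 at 7.36 in the graft against 6.30 in the colon (2.09-fold). The partners Dtx3l and Parp9, an E3 ligase and an ADP-ribosyltransferase-like protein, had differences of 0.96 and 0.68. Tdrd7 was 2.24-fold lower, at 6.10 in the graft against 7.26 in the colon, and Parp12 had a difference of -0.75. The list median turned to -0.11 after subtraction of the epithelial median.

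Targets of interferon gamma in antigen presentation had a median of 1.09 over 16 genes, the highest of the 7 pathway lists outside the 65 genes. In this list 8 were past 2-fold above the colon, against 1.93% of all genes, and 0 past 2-fold below it, against 3.09%. The MHC class II genes and Cd74 in the list are known from the same arrays to be higher in the graft, so the list is not independent of earlier results. Cd74, the invariant chain, was at 9.46 in the graft against 5.78 in the colon, and H2-Ab1 at 9.60 in the graft against 6.08 in the colon. Over the 11 genes left without them the median was 0.66, with 3 at least 2-fold higher. These 3 were the peptide transporter Tap1, at 6.95 in the graft against 5.25 in the colon, and the immunoproteasome subunits Psmb9, at 9.09 in the graft against 7.55 in the colon, and Psmb8, at 8.16 in the graft against 6.69 in the colon. Psme2 and Tapbp had differences of -0.29 and -0.23. The class II transactivator Ciita was at 5.63 in the graft against 4.93 in the colon. Among 7 induced chemokines and checkpoints, Cxcl9, the interferon gamma-induced ligand of CXCR3, was 17.0-fold higher, at 8.88 in the graft against 4.79 in the colon. The related ligands Cxcl10 and Cxcl11 had differences of 0.16 and 0.30, and Ido1, the tryptophan-degrading enzyme, one of 0.99.

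**Figure D4:**
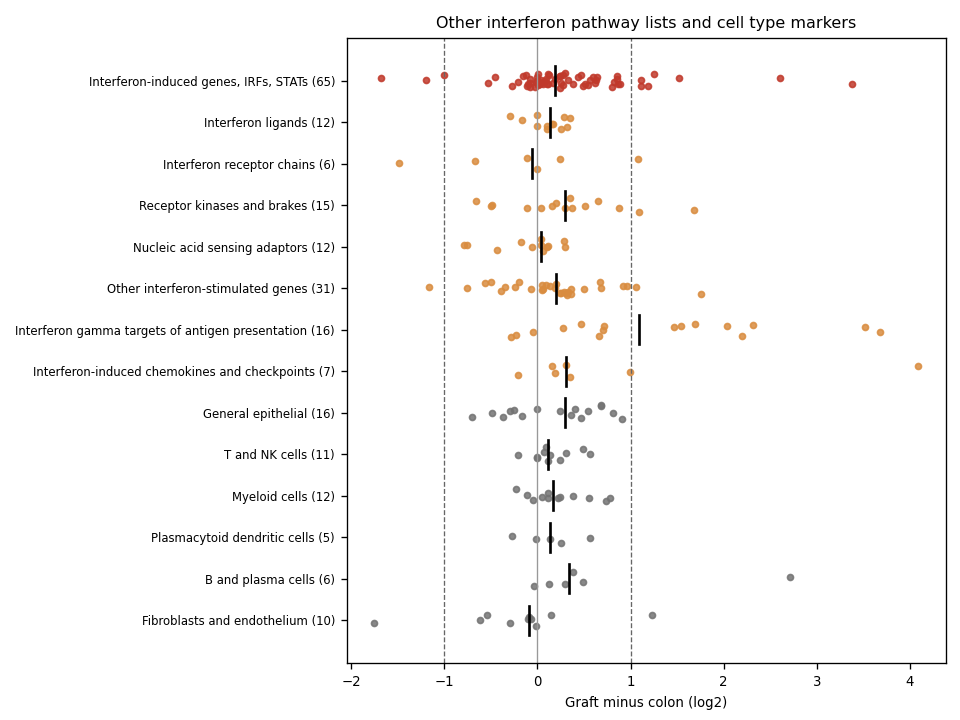
Graft minus colon difference (log2) of each gene in the 65 interferon-related genes (red), other interferon pathway lists (orange) and cell type marker lists (grey), with the number measured in brackets, black bars at the medians, and dashed lines at 2-fold. The antigen presentation list has a median of 1.09, and Cxcl9 is the highest point at 4.09.

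Several of the genes named above, Irf8 among them, are also expressed by leukocytes, whose markers were measured in the same samples. Positive differences were found for 43.5% of all genes, which is the share to set beside the counts below. None of 11 T and NK cell markers was 2-fold apart, and 8 had positive differences. Their summed signal on the linear scale was 360.4 in the graft against 323.3 in the colon. All 11 stayed below the median of all gene values on both arrays, with Cd3e at 5.40 in the graft against 5.31 in the colon. Of 12 myeloid markers, 9 had positive differences and 0 were 2-fold apart, with summed signals of 741.3 in the graft against 644.5 in the colon. The pan-leukocyte gene Ptprc was at 6.09 in the graft against 5.30 in the colon, and C1qb at 6.02 in the graft against 5.29 in the colon. Lyz2, C1qc and Adgre1 had negative differences, with Lyz2 at 6.89 in the graft against 7.01 in the colon. In the plasmacytoid dendritic cell list 3 of 5 were positive, with sums of 238.1 in the graft against 230.3 in the colon. In the B and plasma cell list 5 of 6 were positive, with sums of 833.8 in the graft against 475.5 in the colon. Its members include Igha, the immunoglobulin A heavy chain, at 8.27 in the graft against 5.56 in the colon, and Jchain, the joining chain, at 8.62 in the graft against 8.32 in the colon. Of 10 fibroblast and endothelial markers 8 had negative differences, among them Lum at 5.23 in the graft against 6.99 in the colon. The sums were 627.5 in the graft against 794.0 in the colon. Egfl7 went the other way, at 6.15 in the graft against 4.92 in the colon, 2.34-fold higher. No marker is at 0 on this scale, and the part of these cells in the interferon-related differences was not tested.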

How the data were processed

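Total RNA, 4.33 ng per sample per the labels' protocols, was amplified, biotin-labelled and hybridised to 2 single-channel arrays. The deposited table holds log2 expression levels for 24074 probe sets, and the scale was read from the values, 4.19 to 13.37 on the graft array and 4.22 to 13.46 on the colon array. The background correction and normalization were not stated in the sources used. The sorted columns differ by at most 0.25, with medians of 5.44 and 5.43, so the arrays share nearly 1 distribution, and whether arrays were centred is unknown.

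The platform annotation gave 1 symbol to 18904 probe sets, several to 1330 and none to 3840. Those with 1 symbol were used, 18837 of them matched the GRCm38.p6 RefSeq gene table, and the probe set with the highest mean stood for each of 17305 genes. All 65 genes of the report matched, and 64 had 1 probe set. Differences were computed without further normalization (Python 3.11.15, pandas 2.3.3), and the counting was checked on simulated data. No filter was applied to counts unless stated. Upstream windows on chromosome 18 are not shown. Genes and lists were chosen with earlier results of these data known. Named were genes at least 1.5-fold apart whose higher value reached the median, the extremes of each role group, up to 4 genes with the largest differences in each other list, and 8 anchors, of which 6 were measured. Others named, such as Mx1, Ifit3b and Ifi30, were chosen after their values were seen. Alternatives were the mean over probe sets, quantile normalization, other centrings, a level filter, a 1.5-fold threshold and reduced gene sets. Precision is limited by there being 1 array per group.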

Additional observations from a re-analysis of the deposited data

Results flagged for a closer look

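Outside the gene results, 9 probe sets are annotated to several genes at once, at least 1 of which meets the name rule, and so stand for no single gene. On the graft array 6 of them exceeded the control colon array 2-fold or more, 3 of these 4-fold or more, and 0 were 2-fold lower. Their differences ran from -0.02 to 3.15 with a median of 1.24, and their levels from 4.80 to 8.83 in the graft and from 4.47 to 7.12 in the colon. Over all 1330 probe sets with several genes, 2.78% were at least 2-fold higher. The 6 were picked out because they carry signal above the control array in data the comparison does not use.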

How the results depend on the processing

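No paired analysis was possible because each group has 1 array and the result comes from no test. Quantile normalization left each recomputed count within 1.5 times and each median within a set tolerance. The largest move of a difference among the 65 genes was 0.104. The count at least 2-fold lower went from 3 to 2, with Ifih1 at -0.93. The tolerance was the probe set SD over the square root of the number of genes. It treats related genes as independent and is not the error of a group median. Averaging probe sets, centring on all genes and leaving out the Irf2bp genes met the same limits, but had little room to change the values. Among the 65 genes averaging could alter only Irf1, the median of all genes was 0.00, and no Irf2bp gene was 2-fold apart. The difference of the second probe set of Irf1 stayed within the probe set SD of that of the first. Subtracting the epithelial median of 0.30 lowered every difference by construction: the median of the 65 genes became -0.12 and the count at least 2-fold higher became 3. Under it the role medians were 0.25 for Ifit, -0.024 for Oas, 0.26 for Gbp, -0.21 for Ifi, 0.070 for effectors, -0.41 for RNA sensors, -0.22 for IRFs, -0.39 for Irf2bp and -0.21 for STATs. The other lists moved to -0.17 for ligands, -0.36 for receptor chains, -0.0092 for kinases and brakes, -0.26 for sensing adaptors, -0.11 for other stimulated genes, 0.79 for antigen presentation and 0.0043 for chemokines and checkpoints. Keeping only genes with a mean at or above the median left fewer genes and gave 1.25 for the 1 remaining Ifit gene, 0.55 for 4 effectors, -0.55 for 2 RNA sensors, 0.30 for 6 IRFs, 0.32 for 2 ligands and 1.47 for 15 antigen presentation genes. Without near-identical families the median of the remaining 36 genes was 0.12, and a 1.5-fold threshold counted 17 genes as higher. Signal near the floor limits the values of the 29 genes below the median of all gene values on both arrays.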
